A study of Rattus norvegicus with 3 samples.

Results

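The genes described here are 42 listed genes of DNA replication and nucleotide supply, chosen by symbol: the licensing and firing factors of replication origins, the replicative helicase, the polymerases, the sliding clamp and its loader, the enzymes that finish the lagging strand, the makers of deoxynucleotides, and the factors that rebuild chromatin behind the fork. Of these, 41 were measured, by 53 probes, among 15925 named genes on the array; Gins1 had no probe named for it. The cells were NR8383, a rat alveolar macrophage line that divides in culture. Cultures were exposed for 24 h to 0.1 mg/mL of CNT-2 or CNT-1, both single-wall carbon nanotubes free of impurities, in a working solution with 1 mg/mL bovine serum albumin, or served as the control. The labels call that control untreated in one field and a solvent control with albumin in another, which leaves its albumin unclear, and they do not say in what the nanotube kinds differ.

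The deposited table has 1 column per group. The design text states an n of 4 and the labels a replicate number of 4, so a column may be 1 array or a mean of 4. The spread between cultures could not be computed either way, no test was made, and "higher" and "lower" describe these columns only. Values are on a scale presumed to be log2, centred per probe by the authors on a baseline that the sources used here do not name. The centring took away the level of each probe, so macrophage identity could not be checked from marker levels, and no gene's level can be set against another's. Where a gene had 2 or more probes its value is their mean, and the SD printed is the spread over those probes, which is technical. A threshold of 1 unit, 2-fold if the base is 2, was used for counting. In the control column 52 of the 53 replication probes lay within 0.1 of 0, which says nothing of their signal over background.

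Replication starts when the origin recognition complex, with Cdc6 and Cdt1, loads rings of the MCM helicase onto DNA in G1. In S phase the rings are switched on by Cdc45 and the GINS complex, primase and DNA polymerase alpha lay down primers, and polymerases delta and epsilon extend them while held to DNA by the PCNA clamp. Ribonucleotide reductase, thymidylate synthase and thymidine kinase supply the deoxynucleotides. Many of these genes are transcribed together near the G1/S boundary under E2F transcription factors, and they are widely used as markers of cycling cells; resident alveolar macrophages divide little, whereas a cell line such as NR8383 cycles continuously.

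The promoters of the listed genes were searched for letters known to bind factors of the cell cycle. The genes were listed by symbol as replication genes, so a motif share describes the list and not its values in CNT-2. RefSeq sequences of build GRCr8 matched 36 of the 42 genes; Mcm4, Cdc6, Gins4, Orc1, Rpa3 and Rrm2 are not in the table. The window was the 250 bases before the annotated start, taken from the first listed start where a gene had several, and both strands were searched. The E2F motif, spelled TTTCCCGC, TTTCGCGC, TTTGCCGC or TTTGGCGC, stood in 8 of these 36 promoters (22.2%), against 357 of 13146 promoters of genes measured on the array (2.72%) and 498 of 27457 in the whole table (1.81%). The matches are printed here with up to 16 bases on either side, cut at the start site, so that the sites of the genes that hold one can be compared; capitals mark the motif, and where a match on one strand overlapped a match on the other they were joined.
Mcm2: ggtcacgtgacccggtTTTCGCGCGAAAac
Mcm5: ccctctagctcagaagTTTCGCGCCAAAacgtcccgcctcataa
Mcm5: aactcccaggttggttTTTCCCGC
Mcm6: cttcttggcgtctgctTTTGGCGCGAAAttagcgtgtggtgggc
Mcm7: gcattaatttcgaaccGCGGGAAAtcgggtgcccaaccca
Mcm7: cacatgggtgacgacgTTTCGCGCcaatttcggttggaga
Gins1: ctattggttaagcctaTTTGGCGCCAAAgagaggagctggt
Gins3: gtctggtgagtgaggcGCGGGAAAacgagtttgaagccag
Pola1: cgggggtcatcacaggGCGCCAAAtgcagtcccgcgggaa
Tyms: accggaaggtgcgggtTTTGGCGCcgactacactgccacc

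These windows lie in build GRCr8 as follows: Mcm2 at chr4:122918095-122918124 (minus strand), Mcm5 at chr19:13488584-13488627 (plus strand), Mcm5 at chr19:13488789-13488812 (plus strand), Mcm6 at chr13:42404464-42404507 (minus strand), Mcm7 at chr12:22163388-22163427 (minus strand), Mcm7 at chr12:22163207-22163246 (minus strand), Gins1 at chr3:160184879-160184919 (plus strand), Gins3 at chr19:9434692-9434731 (minus strand), Pola1 at chrX:62342504-62342543 (minus strand), Tyms at chr9:120776097-120776136 (minus strand). Mcm5 and Mcm7 held matches at 2 places each. The joined matches of Mcm2, Mcm5, Mcm6 and Gins1 read as the motif from either strand. In Mcm2, Gins1, Gins3 and Tyms the match began 14, 25, 36 and 37 bases before the start. The second Mcm5 match was the nearest of all, beginning 8 bases before it. A match is a description of letters and not evidence of a bound factor.

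The CCAAT box (CCAAT, or ATTGG on the other strand) stood in 22 of 36 member promoters (61.1%), against 35.2% of promoters of measured genes and 34.3% of the table. The cell cycle homology region (TTTGAA or TTCGAA, both strands) stood in 6 of 36 (16.7%), against 14.9% and 17.3%. The whole 250 bases are shown for the 3 genes furthest below control in CNT-2 and for the gene nearest to it, with CCAAT boxes in capitals in Mcm10 and Clspn and the homology region in capitals in Pole2. None of these 4 windows held the E2F letters, and the Lig1 window held none of the motifs searched.
Mcm10: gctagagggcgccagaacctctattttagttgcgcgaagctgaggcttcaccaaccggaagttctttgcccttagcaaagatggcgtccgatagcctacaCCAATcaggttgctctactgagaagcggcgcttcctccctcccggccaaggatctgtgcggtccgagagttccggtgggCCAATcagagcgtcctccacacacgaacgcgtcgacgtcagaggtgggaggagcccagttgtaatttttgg
Pole2: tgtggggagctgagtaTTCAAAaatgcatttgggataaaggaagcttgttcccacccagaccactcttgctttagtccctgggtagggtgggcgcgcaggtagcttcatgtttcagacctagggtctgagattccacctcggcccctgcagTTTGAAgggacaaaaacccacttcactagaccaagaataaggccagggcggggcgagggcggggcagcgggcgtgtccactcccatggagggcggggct
Clspn: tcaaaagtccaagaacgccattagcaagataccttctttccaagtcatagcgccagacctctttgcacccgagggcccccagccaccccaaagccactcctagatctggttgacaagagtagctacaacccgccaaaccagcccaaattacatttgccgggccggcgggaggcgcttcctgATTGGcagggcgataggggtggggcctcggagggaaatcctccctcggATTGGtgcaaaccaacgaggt
Lig1: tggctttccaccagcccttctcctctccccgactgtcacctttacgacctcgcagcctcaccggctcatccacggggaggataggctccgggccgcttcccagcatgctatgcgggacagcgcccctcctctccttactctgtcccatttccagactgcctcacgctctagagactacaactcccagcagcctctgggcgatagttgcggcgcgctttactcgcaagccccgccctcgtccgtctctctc

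These promoters lie in build GRCr8, with Mcm10 at chr17:78175137-78175386 (plus strand), Pole2 at chr6:93435362-93435611 (minus strand), Clspn at chr5:144134387-144134636 (plus strand), Lig1 at chr1:83242920-83243169 (plus strand). Of the 7 measured genes with an E2F match all were at least 1 unit below control in CNT-2, where 6.56% of all genes were. Their median difference was -1.42, with a range from -1.94 to -1.24. After quantile normalization Mcm7 alone of the 7 passed the threshold. The 28 measured genes whose window held no match had a median of -1.24, a range from -2.33 to -0.086, and 22 of them past the threshold. After quantile normalization Mcm10 and Clspn alone of the 28 passed it. The ranges overlap, and the lowest genes of the list are among those without a match.

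The question of the study was how each nanotube changed gene expression, and CNT-2 was set against control before anything else. In CNT-2 the replication genes were lower as a group: all 41 lay below control, on all 53 probes, with a median difference of -1.30, which is 40.7% of control if the base is 2. At least 2-fold lower were 32 of 41, or 78.0%, against 6.56% of all genes, and none of the 41 was 2-fold higher, against 10.1% of all genes. The median over all genes was 0.041. Quantile normalization ended most of these calls. Then 3 of 41 genes, Mcm10, Mcm7 and Clspn, were at least 1 unit lower, against 3.42% of all genes. The median was -0.63, against 0.021 over all genes, and 39 of 41 genes stayed below control. That scaling gives the columns 1 common spread, so 1 unit after it need not be 2-fold. The counts of each role that follow are on the deposited scaling. Under quantile normalization no listed gene but Mcm10, Mcm7 and Clspn passed the threshold. In bulk RNA, fewer cycling cells in a culture and less of these RNAs per cell cannot be told apart. Of the 32 genes, 3 were at or below -2, 9 lay above that and down to -1.5, and 20 lay between -1.5 and -1. On the higher side of the threshold were 9 genes, namely Rrm1, Prim2, Fen1, Rpa3, Orc6, Rrm2, Gins4, Pcna and Lig1. Closest to the threshold were Rfc4 at -1.07 within it and Rrm1 at -0.94 outside it.

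**Figure D1:**
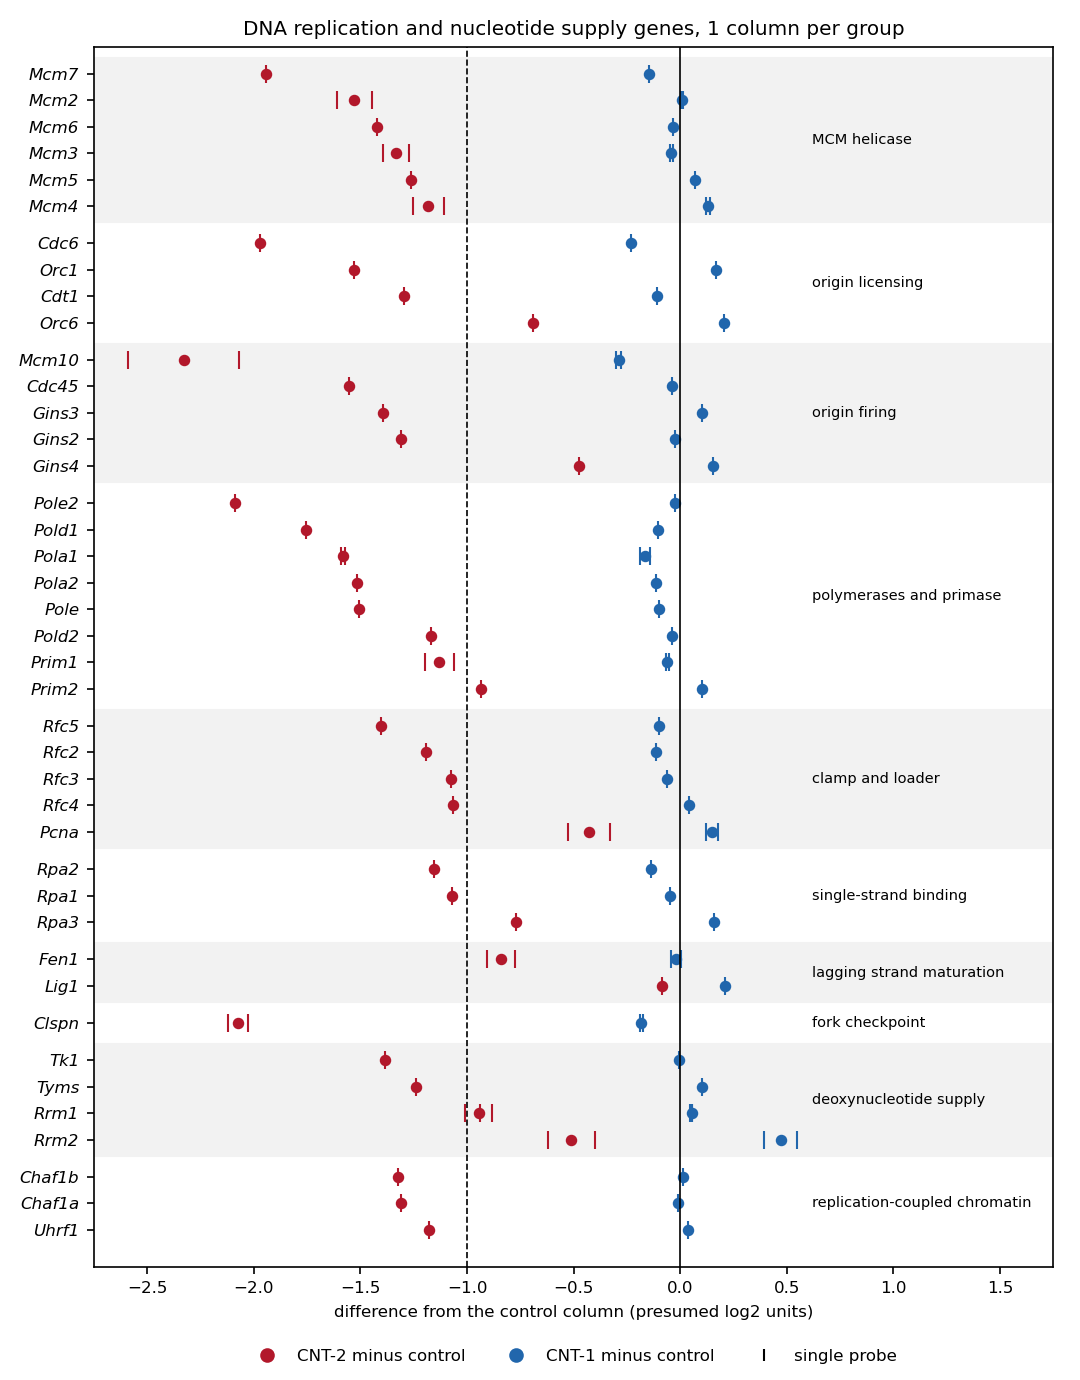
Difference from the control column, in presumed log2 units, of each measured replication gene, grouped by role; dots are gene means over probes, ticks single probes, red CNT-2 and blue CNT-1, and the dashed line marks -1. In CNT-2 all 41 genes lie left of 0 and 32 left of the dashed line, while in CNT-1 the genes lie between -0.29 and 0.47.

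**Figure D2:**
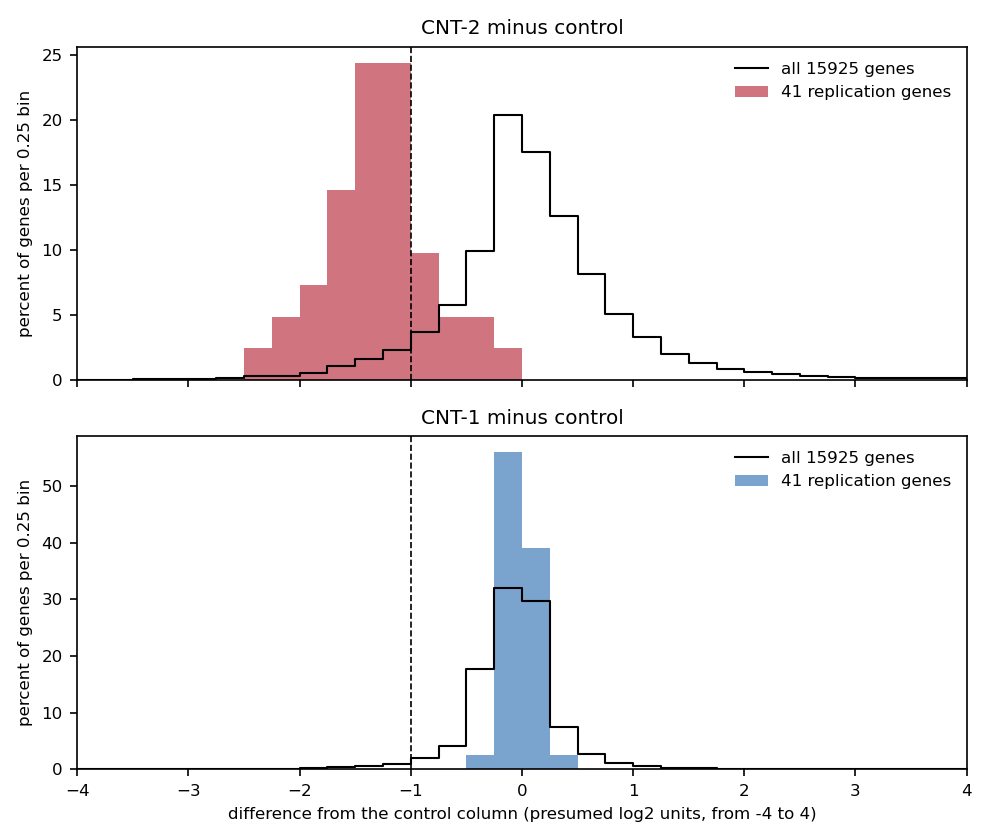
Percent of genes in each bin of 0.25 presumed log2 units, for the 41 replication genes (bars) and all 15925 genes (line), shown from -4 to 4, with CNT-2 minus control above and CNT-1 minus control below. In CNT-2 the bars sit to the left of the line's peak, and in CNT-1 they lie on it.

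The MCM helicase unwinds DNA at the fork as a ring of Mcm2 to Mcm7. All 6 subunits were at least 2-fold lower in CNT-2, from -1.94 to -1.18, with a median of -1.38, where 6.56% of all genes were. Under quantile normalization Mcm7, at -1.003, alone passed, and the others lay from -0.79 to -0.37. Mcm7 had values of -1.94 in CNT-2, -0.147 in CNT-1 and -0.001 in control, and was 3.84-fold lower in CNT-2 than in control. The CNT-1 and control values were thus close together, and the CNT-2 value stood apart. Mcm2 was at -1.53 ± 0.12 relative to control (probe SD, 2 probes), Mcm6 at -1.42 and Mcm3 at -1.33 ± 0.09 (2 probes). Mcm5 was at -1.26 and Mcm4 at -1.18 ± 0.10 (2 probes). Apart from Mcm7 the subunits lay within a narrow span. In CNT-1 the subunits lay from -0.146 to 0.13.

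Among the listed licensing factors, which load the helicase, 3 of 4 were at least 1 unit lower in CNT-2, where 6.56% of all genes were. Cdc6, the loading ATPase, had values of -1.99 in CNT-2, -0.244 in CNT-1 and -0.014 in control. Orc1, an ATPase subunit of the origin recognition complex, had -1.502 in CNT-2, 0.197 in CNT-1 and 0.029 in control. Cdc6 and Orc1 therefore lay on opposite sides of control in CNT-1 and on the same side in CNT-2. Cdt1, which brings the helicase to the origin, was at -1.30 relative to control in CNT-2 and at -0.108 in CNT-1. Orc6, a small subunit of the complex, was less far from control, at -0.69 in CNT-2 and 0.204 in CNT-1. The subunits of the complex outside the list were also short of the threshold in CNT-2. Orc3 was at -0.635 and Orc5 at -0.42 ± 0.02 (probe SD, 2 probes), while Orc2 was at 0.021 ± 0.04 (3 probes) and Orc4 at 0.34. Orc1 was thus the only measured subunit of the complex past the threshold.

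The firing factors turn the loaded helicase on. Mcm10, which is needed for origin firing and is not a subunit of the ring, was the lowest of all listed genes in CNT-2, with -2.32 in CNT-2, -0.275 in CNT-1 and 0.013 in control. Its difference from control was -2.33 ± 0.37 (probe SD, 2 probes), the 92nd lowest of 15925 genes, and its probes stood at -2.59 and -2.07, so they differ in size and not in direction. Cdc45, the helicase cofactor, was at -1.55 relative to control in CNT-2 and at -0.038 in CNT-1. The GINS subunits were unequal: Gins3 was at -1.39 and Gins2 at -1.31 in CNT-2, whereas Gins4 was at -0.47. Gins4 had values of -0.469 in CNT-2, 0.159 in CNT-1 and 0.004 in control, from 1 probe.

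Of the listed polymerase and primase subunits 7 of 8 were at least 1 unit lower in CNT-2, where 6.56% of all genes were, and their median was -1.51. The subunits measured outside the list were all short of the threshold. Of polymerase epsilon, Pole3 was at -0.58 ± 0.21 (probe SD, 3 probes) and Pole4 at -0.14. Of polymerase delta, Pold3 was at 0.37 and Pold4 at 0.19. Pole2, the accessory subunit of the leading strand polymerase epsilon, had values of -2.11 in CNT-2, -0.047 in CNT-1 and -0.022 in control, and was 4.26-fold lower in CNT-2 than in control. The catalytic subunit Pole was at -1.51 relative to control. Pold1, the catalytic subunit of polymerase delta, was at -1.76 and its partner Pold2 at -1.17. For epsilon the accessory subunit was thus the lower of the pair, and for delta the catalytic subunit was. Pola1 and Pola2 of polymerase alpha were alike, at -1.58 ± 0.01 (probe SD, 2 probes) and -1.51. The primase subunits were at -1.13 ± 0.10 for Prim1 (2 probes) and -0.93 for Prim2. In CNT-1 the 8 listed genes lay from -0.164 to 0.103, with 7 below control, or 5 with columns centred on their medians and 2 after quantile normalization.

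The clamp and the listed subunits of its loader differed from each other in CNT-2. The loader subunits Rfc5, Rfc2, Rfc3 and Rfc4 were at -1.40, -1.19, -1.07 and -1.07. All were at least 1 unit lower, where 6.56% of all genes were. Rfc1, a loader subunit outside the list, was at -0.50 ± 0.05 (probe SD, 2 probes), short of the threshold and close to the clamp. Pcna, the clamp itself, had values of -0.426 in CNT-2, 0.152 in CNT-1 and 0.002 in control. It was at -0.43 ± 0.14 relative to control (probe SD, 2 probes, at -0.53 and -0.33), or 74.3% of control, and so was the second smallest difference of the list. In CNT-1 the loader subunits lay between -0.112 and 0.042, and Pcna was at 0.15 ± 0.04. Pcna also works in DNA repair.

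RPA covers exposed single-stranded DNA as a trimer. Rpa2 was at -1.15 and Rpa1 at -1.07 in CNT-2, and Rpa3, the smallest subunit, was at -0.77. The lagging strand enzymes were nearer to control than any other role: Fen1, the flap endonuclease, was at -0.84 ± 0.09 (probe SD, 2 probes), and Lig1, the ligase that seals Okazaki fragments, at -0.086. Lig1 had values of -0.077 in CNT-2, 0.219 in CNT-1 and 0.009 in control, from 1 probe. It was the member nearest to control in CNT-2, and 1 of the 5 furthest from control in CNT-1. Clspn, the adaptor that passes the fork checkpoint signal from ATR to Chk1, had values of -2.08 in CNT-2, -0.186 in CNT-1 and -0.003 in control. Its difference was -2.08 ± 0.07 (probe SD, 2 probes), or 4.21-fold lower in CNT-2, the third lowest of the list after Mcm10 and Pole2.

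Of the 4 deoxynucleotide genes 2 were at least 1 unit lower in CNT-2, where 6.56% of all genes were. Tk1, the S phase thymidine kinase, was at -1.39 relative to control in CNT-2 and at -0.004 in CNT-1. Tyms, thymidylate synthase, was at -1.24 in CNT-2 and at 0.103 in CNT-1. Both thymidine enzymes were past the threshold in CNT-2. Rrm1, the large subunit of ribonucleotide reductase, was just short of it, at -0.94 ± 0.06 in CNT-2 (probe SD, 3 probes), and at 0.053 ± 0.005 in CNT-1. Rrm2, the S phase small subunit, had values of -0.56 in CNT-2, 0.42 in CNT-1 and -0.052 in control. Rrm2 lay below control in CNT-2, at -0.51 ± 0.15 (probe SD, 2 probes, at -0.62 and -0.40), and above it in CNT-1, at 0.47 ± 0.11 (at 0.55 and 0.39), where it was the highest of the 41. With the probe that lay outside 0.1 of 0 in control left out, the CNT-1 value was 0.39.

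Chaf1a and Chaf1b, subunits of the chromatin assembly factor that deposits histones on new DNA, were at -1.31 and -1.33 in CNT-2. Uhrf1, which guides maintenance DNA methylation after replication, was at -1.18. All 3 were at least 1 unit lower in CNT-2, where 6.56% of all genes were, and in CNT-1 the 3 lay between -0.01 and 0.037. Chaf1a and Chaf1b thus differed from control by nearly the same amount.

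In CNT-1 no replication gene reached the threshold. Against control 0 of 41 were 2-fold lower, where 2.15% of all genes were, and 0 of 41 were 2-fold higher, where 1.16% were, so that the absence of such genes in a list of this size says little. The median was -0.024, with 24 genes below and 17 above control, against a median over all genes of -0.043. The sign of that median is not settled, since it was 0.035, 0.113 and 0.022 when columns were centred on their medians, quantile normalized or centred on spike-in probes, with 14, 10 and 15 genes below control. Within 0.2 of control lay 36 of the 41 genes. The others were Mcm10 at -0.29 ± 0.02 (probe SD, 2 probes) and Cdc6 at -0.23 on the lower side, and Orc6 at 0.204, Lig1 at 0.21 and Rrm2 at 0.47 ± 0.11 on the higher side. With 1 column per group a difference of any size, in CNT-1 or in CNT-2, cannot be told from variation between cultures.

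CNT-2 was also set directly against CNT-1 at the same dose and time. All 41 genes were lower in CNT-2 than in CNT-1, with a median of -1.30, and 33 were at least 2-fold lower, against 4.65% of all genes, while none was 2-fold higher, against 9.32%. Quantile normalization left 3 of 41 at least 1 unit lower, against 2.08% of all genes, with a median of -0.75. As deposited, the median over all genes was 0.151. Pole2 had the most negative difference, at -2.07, followed by Mcm10 at -2.04 ± 0.38 (probe SD, 2 probes) and Clspn at -1.89 ± 0.06 (2 probes). Orc1 was lower by more against CNT-1, at -1.70, than against control, at -1.53, since it lay above control in CNT-1. Rrm2 was at -0.98 ± 0.26 (2 probes) against CNT-1, nearly 1 unit, where its difference from control was -0.51. Lig1 was again the nearest, at -0.296. Comparisons with control share the control column, so the sizes in CNT-2 and CNT-1 are given side by side and not as a relation between them.

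**Figure D3:**
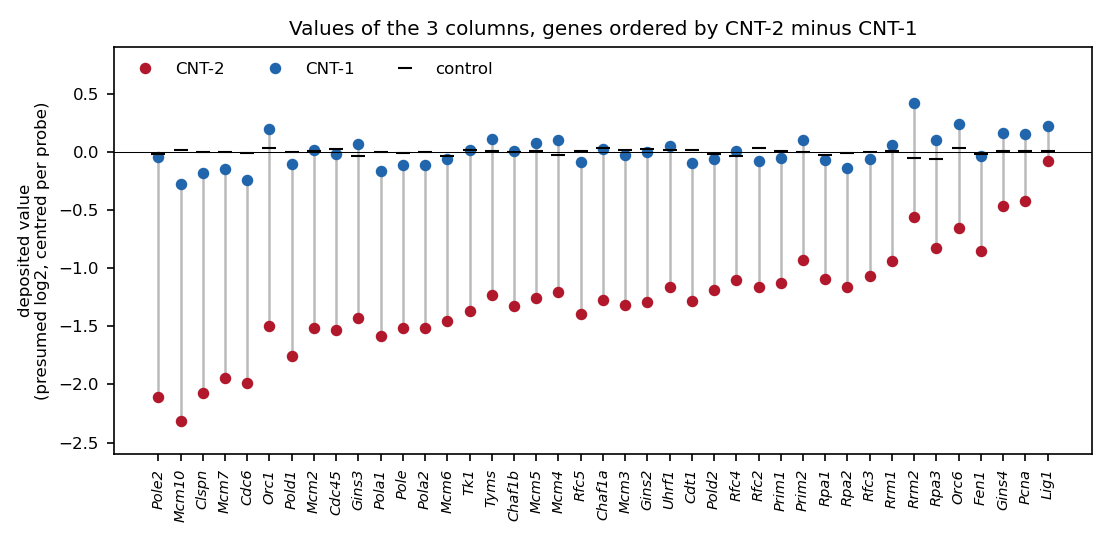
Deposited values (presumed log2, centred per probe by the authors) of the 41 replication genes in the CNT-2, CNT-1 and control columns, ordered by CNT-2 minus CNT-1. The control marks lie near 0, the CNT-1 dots between -0.28 and 0.42, and each CNT-2 dot lies below its CNT-1 dot.

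Genes of the same pathway outside the list gave a more mixed picture. Members and other lists were chosen with earlier results of these data known, so this contrast can reflect that choice. Of 33 other replication factors 13 were at least 2-fold lower in CNT-2 and none higher, with a median of -0.88 and 28 below control, where 6.56% of all genes were lower and 10.1% higher. Quantile normalization left 3 of the 33 past the threshold. The lowest were Dscc1, which helps load the clamp, at -2.51, the fork protection protein Timeless at -1.95, the clamp unloader Atad5 at -1.89 ± 0.04 (probe SD, 2 probes) and the topoisomerase Top2a at -1.88 ± 0.07 (2 probes). The highest were the polymerase delta subunit Pold3 at 0.37, the origin recognition subunit Orc4 at 0.34, the topoisomerase Top1 at 0.27 ± 0.22 (2 probes) and the polymerase delta subunit Pold4 at 0.19. Centring on the 75th percentile put Top1 at -0.045 and Pold4 at -0.129, so the side of control on which these lay depends on the scaling. Pold3 and Orc4, from 1 probe each, stayed above control under each alternative run. Under 75th percentile centring, however, they were at 0.056 and 0.026, close to control. On the deposited scaling subunits of polymerase delta thus differed in direction, with Pold1 and Pold2 below control and Pold3 above it. In CNT-1 the same 33 genes had a median of -0.02 and none passed the threshold. There 2.15% of all genes were lower and 1.16% higher, so in a list of this size that absence says little.

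Of 20 measured enzymes of nucleotide supply outside the list 3 were at least 2-fold lower in CNT-2 and 1 higher, with a median of -0.51, where 6.56% of all genes were lower and 10.1% higher, and after quantile normalization none was past the threshold on either side. Dut, which removes dUTP, was at -1.53 ± 0.04 (probe SD, 2 probes), Dctpp1, which clears altered deoxycytidine triphosphates, at -1.39 and the mitochondrial thymidine kinase Tk2 at -1.10 ± 0.12 (2 probes). Impdh1, an enzyme of guanine nucleotide synthesis, was at 1.39. Rrm2b, the p53-induced alternative to Rrm2 in ribonucleotide reductase, was at 0.76 in CNT-2 and -0.25 in CNT-1; it was picked out after its values were seen. Set beside Rrm2, at -0.51 in CNT-2 and 0.47 in CNT-1, its values had the opposite signs, except that quantile normalization put Rrm2 at 0.056 in CNT-2.

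Of 22 measured G1/S regulators 10 were at least 2-fold lower in CNT-2 and 1 higher, with a median of -0.87, where 6.56% of all genes were lower and 10.1% higher. After quantile normalization 0 of 22 were past the threshold on either side. The lowest were the repressor E2f7 at -1.69, the cyclin Ccne2 at -1.66 ± 0.10 (probe SD, 2 probes), the repressor E2f8 at -1.59 ± 0.37 (2 probes) and the CDK inhibitor Cdkn2c at -1.53. The highest were the CDK inhibitors Cdkn2b at 1.23 and Cdkn1a, the p53 target p21, at 0.66 ± 0.18 (2 probes), followed by E2f3 at 0.21 ± 0.50 (2 probes) and the kinase Cdk6 at 0.014. CDK inhibitors were therefore found at both ends. Under centring on the 75th percentile E2f3 was at -0.101 and Cdk6 at -0.301, whereas Cdkn2b and Cdkn1a stayed above control in CNT-2 under each alternative run. In CNT-1 the median was 0.066 with none past the threshold, where 2.15% of all genes were lower and 1.16% higher. In a list of this size that absence says little.

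**Figure D4:**
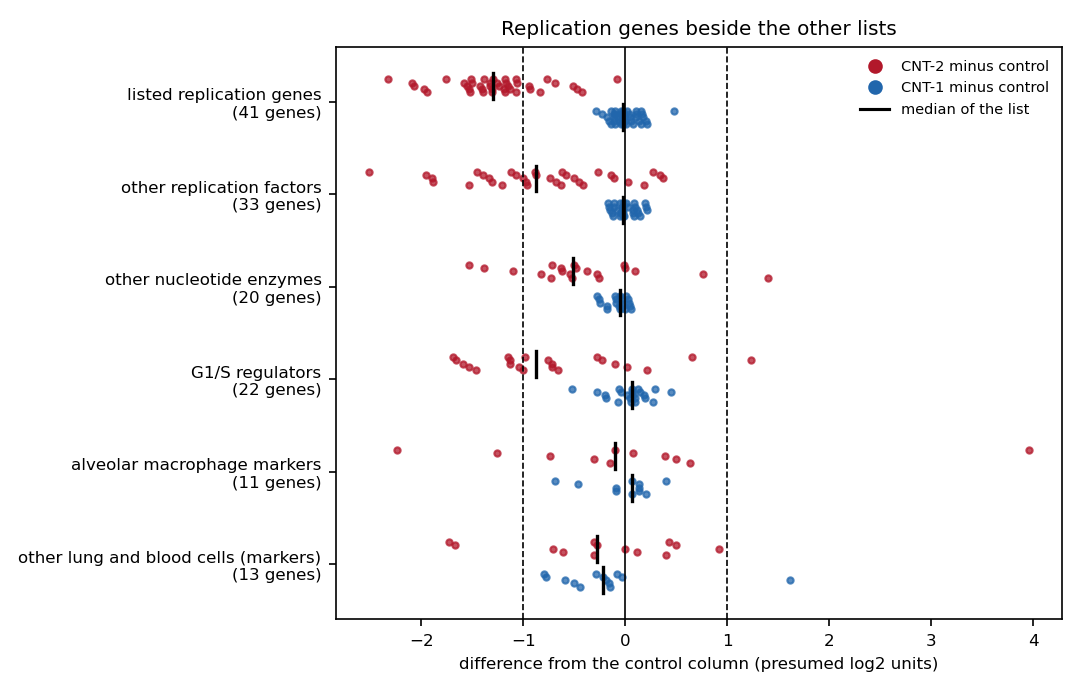
Difference from the control column, in presumed log2 units, for the replication genes, other lists of the pathway and marker lists, with CNT-2 in red, CNT-1 in blue and the list median as a black bar; dashed lines mark -1 and 1. The median in CNT-2 is -1.30 for the listed replication genes, -0.88 for other replication factors, -0.51 for other nucleotide enzymes and -0.87 for G1/S regulators, and in CNT-1 these 4 medians lie between -0.05 and 0.066, while that of the markers of other lung and blood cells is -0.22.

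Other values moved in the CNT-2 column beside the replication genes. Of 11 measured alveolar macrophage markers 2 were 2-fold lower and 1 higher, where 6.56% of all genes were lower and 10.1% higher. The lower were Mrc1 at -2.24 ± 0.13 and Csf1r at -1.25 ± 0.60 (probe SD, 2 probes each). Fabp4 was higher at 3.96, and the list median was -0.10. Of 13 measured markers of other lung and blood cells 2 were lower, Vwf at -1.73 ± 1.66 (2 probes) and Nkg7 at -1.67. None of the 13 was higher, and their median was -0.28. In CNT-1 Epcam was at 1.61. Under at least 1 alternative run Csf1r, Vwf and Nkg7 fell short of the threshold, at -0.83, -0.55 and -0.86 where nearest to control. Mrc1 and Fabp4 stayed past it under each. Control probes with DCP in their name, of unstated purpose, were at 0.22 ± 0.08 (SD over 11 probes) for numbers up to 5 and at -0.18 ± 0.26 (SD over 7 probes) above that, and spike-in probes were at 0.23 ± 0.10 (SD over 10 probes). The part of these in the replication values was not tested.

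The choice of scaling changed sizes and counts. Quantile normalization, which gives the 3 columns 1 common spread although their SDs as deposited were 0.852 in CNT-2, 0.396 in CNT-1 and 0.16 in control, reduced the counts as given above and put Rpa3 at 0.009 and Rrm2 at 0.056 relative to control in CNT-2. Under the other ways of processing every measured member stayed below control in CNT-2.

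**Figure D5:**
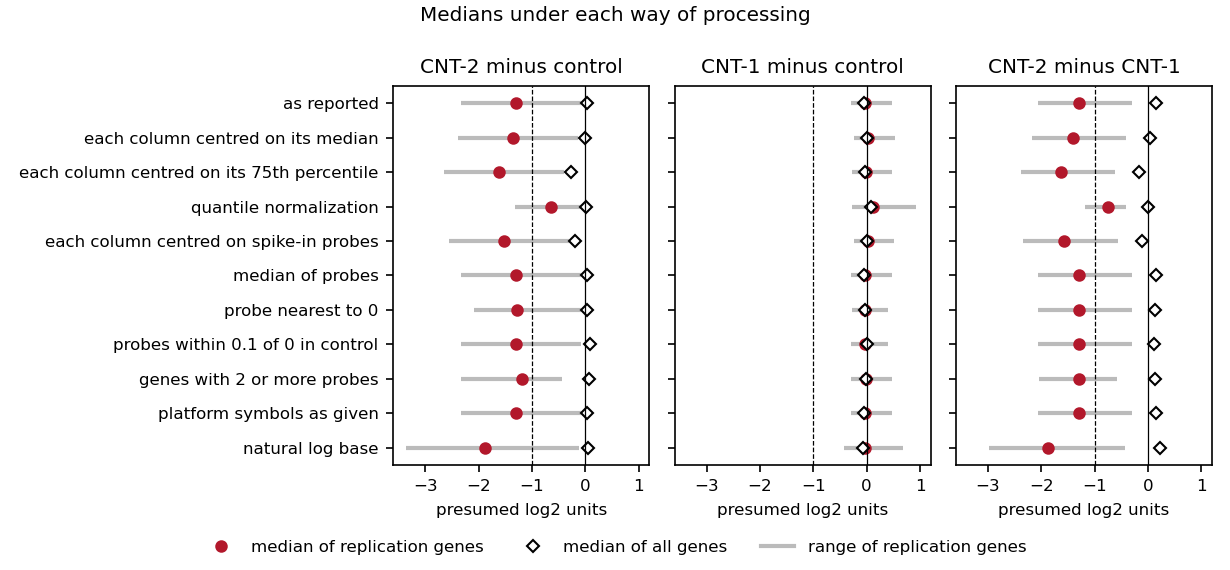
Median of the replication genes (red), their range (grey) and the median of all genes (diamonds), in presumed log2 units, under each way of processing for the 3 comparisons. Against control the CNT-2 medians lie between -1.87 and -0.63 and the CNT-1 medians between -0.035 and 0.113.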

How the data were processed

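NR8383 RNA, carrying Cy3, was measured on Agilent arrays of 1 colour, per the labels' protocols. The submitters' processing notes name Agilent Feature Extraction, version 10.7.3.1. The deposited table holds differences presumed to be on a log2 scale, with 3 columns and 41103 probes; base, centring and direction were read from the values, and no source used here states the scaling between arrays. The base could be the natural log. The design text states n as 4 with no unit, and each column was treated as 1 value; the number of arrays limits the precision. From this table the differences between columns were computed per probe and averaged per gene. The platform annotation named 20932 probes, updated through RefSeq accessions, current symbols or older symbols (17424, 3104 and 396 probes, with 8 unmatched). All 42 listed genes, and genes of the other lists at least 1 unit from control (or the 4 lowest and 4 highest), were to be named. Members and lists were chosen with earlier results of these data known. No test or p-value was possible with 1 column per group. The calculations were tested on simulated data. Alternatives were 4 scalings, 2 probe summaries, 2 filters, platform symbols, the natural log and a 1.5-fold threshold. Python 3.11.15, pandas 2.3.3 and numpy 2.4.6 were used.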

Additional observations from a re-analysis of the deposited data

How the results depend on the processing

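No paired analysis was possible because each group has 1 column. All values below are on the presumed log2 scale. With columns centred on the 75th percentile the median of the replication genes was -1.61 in CNT-2 against control and -1.62 in CNT-2 against CNT-1. With spike-in centring these medians were -1.52 and -1.57. Both centrings move every gene of a column by the same amount, so the median over all genes moved too. The replication median minus the all-gene median stayed at -1.34 and -1.45, as reported. If the base is the natural log the reported medians of the replication genes are -1.87 and -1.87 in log2 units. Quantile normalization gave -0.63 and -0.75, with 3 genes at least 1 unit lower in each comparison, and 0.113 in CNT-1 against control. The columns differ in spread, which quantile normalization removes by construction. With genes of 2 or more probes only, 7 of 11 were at least 1 unit lower in each CNT-2 comparison, a smaller count because fewer genes remain. The count of 0 genes in CNT-1 against control held under each alternative run, the 1.5-fold threshold included. The other counts stayed within 1.5 times and the other medians within the probe spread. Of 1140 values of single genes under alternatives, 746 moved by no more than the probe spread, 394 by more, and 0 with a reported difference of 1 unit or more changed sign. Many of the 746 could not move: probe summaries leave the 30 members with 1 probe unchanged, and platform symbols named the same member probes. The 746 are therefore no measure of stability. Orc6, Rpa3, Prim2, Fen1 and Rrm1 lay past the threshold in CNT-2 against control under centring on the 75th percentile and short of it as reported. In CNT-2 against control the counts at least 1 unit lower were 18 and 3 of 33 other replication factors, 6 and 0 of 20 other nucleotide enzymes and 14 and 0 of 22 G1/S regulators with 75th percentile centring and with quantile normalization, against 13, 3 and 10 as reported. Of all genes 11.5% and 3.42% were at least 1 unit lower under these 2 scalings, against 6.56% as reported. Having 1 column per group and no probe levels limits every value.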
